A study of Mesocricetus auratus with 10 samples.

Results

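The respiratory chain and ATP synthase genes were taken as the array probes whose design gene name begins with NDUF, UQCR, COX followed by a digit, or ATP5, or is SDHA, SDHB, SDHC or SDHD. The rule found 89 genes among the 13826 named genes tested. They comprised 35 subunits of complex I, 4 of complex II, 8 of complex III, 13 of complex IV and 14 of complex V. The remaining members were 3 assembly factors of complex I, 7 of complex IV, and 5 further genes whose names match the rule. Of those 5, COX7A2L is known for the pairing of complexes into supercomplexes and COX4NB is not a gene of the chain at all. All 89 genes passed the filter on dim probes, and each was represented by its brightest probe.

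Livers came from 10 male golden hamsters, Mesocricetus auratus, on a high fat diet (HFD), which serves as a model of fatty liver. Liver RNA of 10 hamsters on standard diet (STD) was combined into 1 pool as the reference. On 2 arrays per animal the HFD RNA was set against this pool, once with its RNA labelled in Cy5 and once in Cy3, so that 20 two-colour arrays gave 10 biological replicates. No label used here gives the age, the strain or the time on the diet. Because no STD animal was measured singly, the pool enters the test as a constant with no spread of its own, and which way each ratio runs was read from the array names.

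In animals 5 to 10, the 6 arrays whose Cy3 channel held the HFD RNA stood apart from the rest. Their ratios correlated across genes at r between 0.855 and 0.929 with each other and between 0.328 and 0.768 with the other 14 arrays, which correlated among themselves at 0.182 to 0.773. What set the 6 apart was thus their likeness to each other. The main counts are therefore given with and without them. The share of probes well above background in HFD RNA ran from 77.2% to 97.7% over the arrays, no spot was saturated, and precision is limited by how many arrays there are. Of 10 measured hepatocyte markers, all were well above background on 20 of 20 arrays in both RNAs.

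The respiratory chain passes electrons along the inner mitochondrial membrane. Complex I takes them from NADH and complex II from succinate, complex III hands them from ubiquinol to cytochrome c, and complex IV passes them to oxygen. The protons pumped by complexes I, III and IV drive ATP synthase (complex V), which consists of the catalytic F1 head and the membrane-bound Fo part joined by stalks. In liver, which oxidises much of the fatty acid reaching it, the electrons from beta-oxidation enter this chain.

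At an adjusted p below 0.05 (limma, two-sided, Benjamini-Hochberg over all genes tested), HFD liver had 22 of the 89 genes higher and 44 lower, and 23 were not called. Over all genes tested, 60.3% were called, with 31.4% higher and 28.9% lower. The median of the members' mean log2 ratios was -0.082, against 0.0082 for all genes. Single members ranged from -0.71 (COX16) to 0.30 (SDHB), so none reached a 2-fold mean difference. On the 14 arrays without the 6 that stood apart, 22 members were higher and 18 lower, where 24.9% of all genes were higher and 18.3% lower, and the members' median was 0.0022. All 18 lower members of the 14 arrays were among the 44, and 20 of the 22 higher ones were among the 22. With the 6 arrays the share of lower members thus lay above the background, and on the 14 arrays (18 of 89) close to it. The animals of the 6 arrays enter the 14 with HFD in Cy5 only. In other sets without the 6 arrays the share stayed above the background. With HFD in Cy5 alone, 29 of 89 members were lower, against 22.3% of all genes. In animals 1 to 4 alone, 15 of 89 members were lower, against 1614 of 13826 genes. In whole liver, fewer cells of a type and less RNA per cell cannot be told apart.

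**Figure D1:**
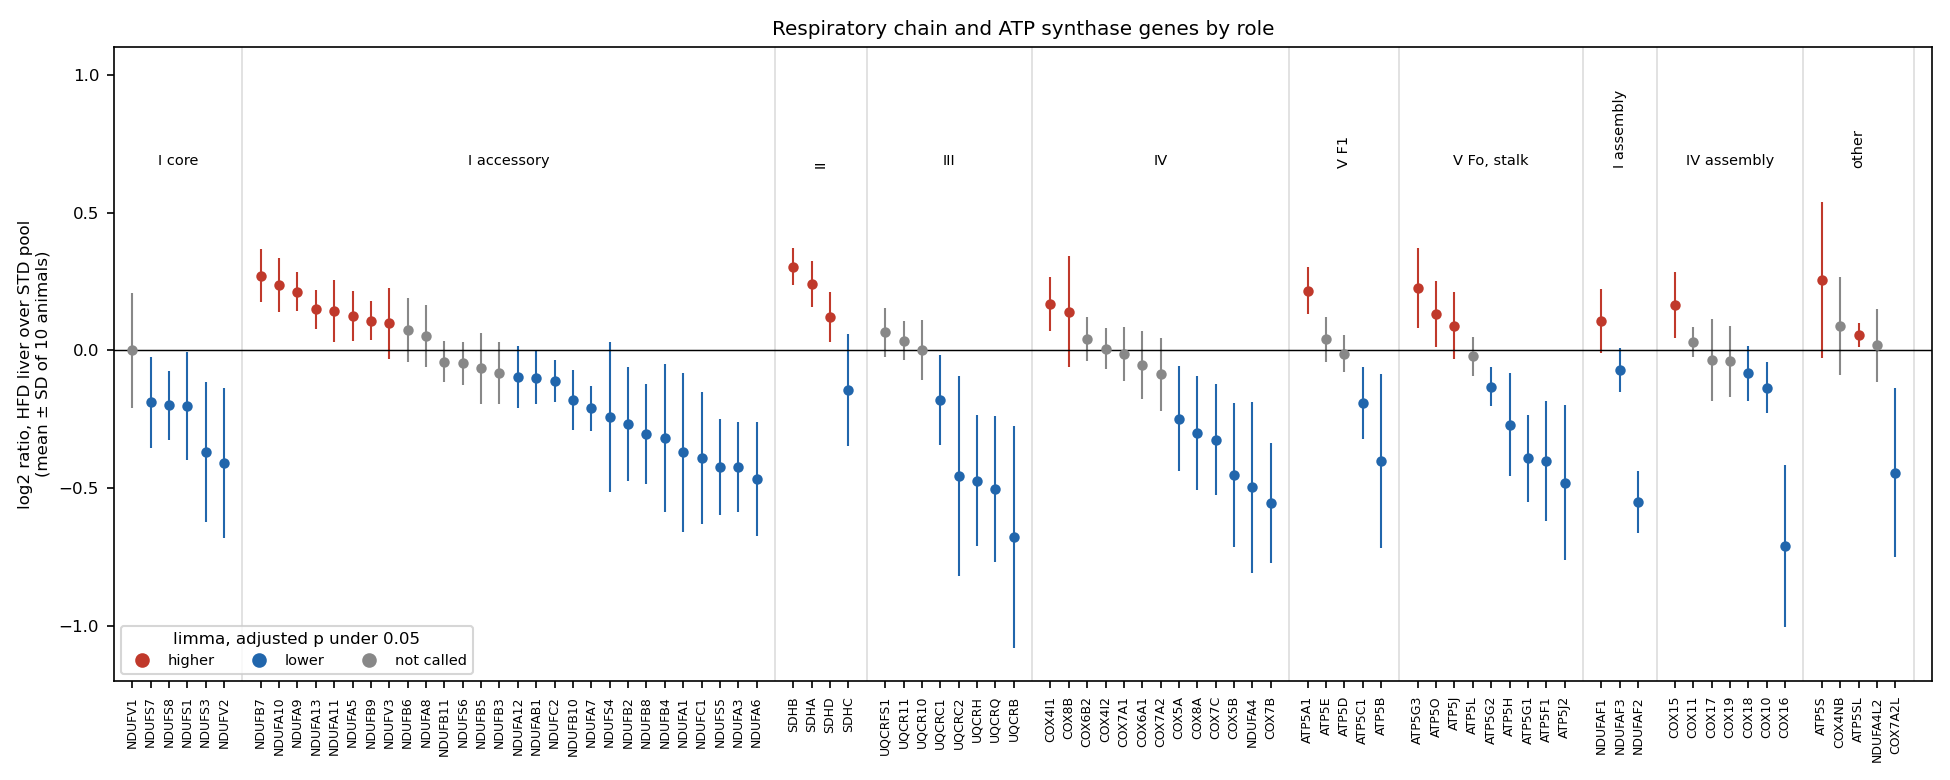
Mean log2 ratio of HFD liver over the STD pool for the genes reported here, grouped by role; points are means and bars SD of 10 animals, coloured by the limma call. Complex II has its higher genes at the left, complex III has no higher gene, and COX16 is the lowest of all.

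In complex I, 9 of 35 subunits were higher and 19 lower (31.4% and 28.9% of all genes), with a median of -0.099. Of its core subunits, the set that carries out the catalysis, the name rule matches 7 and leaves out those encoded by mitochondrial DNA. Of these 7, 1 was higher and 5 lower. The iron-sulfur subunit gene NDUFV2 ran from -0.81 through a median of -0.43 to 0.013 over the 10 animals. It was below 0 in 9 of 10 animals and 1.33-fold lower (-0.41 ± 0.27, SD, n = 10, limma adjusted p = 0.000368), but -0.11 with an adjusted p of 0.0959 on the 14 arrays. NDUFS8, another iron-sulfur subunit, was below 0 in 10 of 10 animals (-0.20 ± 0.12, limma adjusted p = 0.000491), and was likewise not called on the 14 arrays (-0.086, limma adjusted p = 0.0846). On those arrays 2 core subunits were called higher, NDUFV1 among them (0.15, limma adjusted p = 0.00591), and the 5 that were lower on 20 arrays lay between -0.11 and -0.0061 and were not called.

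Among the 28 accessory subunits of complex I, 8 were higher and 14 lower. NDUFB7, of the membrane arm, had ratios from 0.15 to 0.45 with a median of 0.25. All 10 animals were above 0, with a mean of 0.27 ± 0.097 (limma adjusted p = 9.46e-06). NDUFA10, also of the membrane arm, ran from 0.10 through 0.25 to 0.41 and was higher by 0.24 ± 0.098 (limma adjusted p = 3.00e-05), and its 4 other probes gave 0.18 to 0.28. Both genes were called higher in each dye orientation taken alone. At the other end, NDUFA6, a small subunit of the peripheral arm, spanned -0.72 to -0.066 with a median of -0.49 (mean -0.47 ± 0.21, limma adjusted p = 1.59e-05). NDUFA3, a small subunit of the membrane arm, spanned -0.63 to -0.16 with a median of -0.48 (mean -0.42 ± 0.16, limma adjusted p = 6.22e-06). Both were below 0 in 10 of 10 animals and stayed lower on the 14 arrays, at -0.26 and -0.24. Of all the accessory subunits, 9 were higher and 4 lower on those arrays, where 24.9% and 18.3% of all genes were.

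Complex II, the succinate dehydrogenase that also belongs to the tricarboxylic acid cycle, had 3 of its 4 genes higher. SDHB, the iron-sulfur subunit, had a lowest ratio of 0.21, a median of 0.30 and a highest of 0.43. Every animal was above 0 in both dye orientations, and the mean was 0.30 ± 0.066, or 1.23-fold (limma adjusted p = 5.42e-07). SDHA, the flavoprotein, ran from 0.10 through 0.25 to 0.37, with a mean of 0.24 ± 0.084 (limma adjusted p = 1.24e-05). Its 13 further probes were all called higher, at 0.22 to 0.36, and the 4 further probes of SDHB at 0.33 to 0.39. Both genes were higher to a like extent on the 14 arrays (0.26 and 0.27). The genes of the membrane anchors differed from each other. SDHD ran from 0.012 to 0.27 with a median of 0.081 and was higher (0.12 ± 0.089, limma adjusted p = 0.00322), although its other 2 probes, at 0.047 and 0.053, were not called. SDHC ran from -0.44 to 0.19 with a median of -0.13 and was called lower (-0.14 ± 0.20, limma adjusted p = 0.0435). It was 0.058 on the 14 arrays (limma adjusted p = 0.575), and its single probe lay 0.010 with HFD in Cy5 and -0.30 with HFD in Cy3.

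Complex III had 0 of 8 genes called higher and 5 lower, where 31.4% and 28.9% of all genes were called, and the lowest median of any complex (-0.32). At an unadjusted p under 0.05 in the same limma fit, 1 gene (UQCRFS1) was above 0 and the same 5 were below. UQCRB, a small subunit near the quinone site, ran from -1.28 through -0.72 to -0.11. All animals were below 0, with animals 5 to 10 at -1.28 to -0.67 and animals 1 to 4 at -0.46 to -0.11. This split was taken from the arrays seen to stand apart in these same ratios, so the gap is no independent test. The mean of UQCRB was -0.68 ± 0.40, 1.6-fold lower (limma adjusted p = 0.000134). UQCRQ, another small subunit, ran from -0.87 through -0.50 to -0.13 and was lower by the same measure (-0.50 ± 0.27, limma adjusted p = 5.79e-05), with 3 further probes at -0.51 to -0.33. The hinge protein gene UQCRH (-0.47 ± 0.24) and the core protein genes UQCRC2 (-0.46 ± 0.36) and UQCRC1 (-0.18 ± 0.16) were lower as well. UQCRFS1, the Rieske iron-sulfur protein, was at 0.066 ± 0.088 (limma adjusted p = 0.0703), UQCR11 at 0.035 ± 0.070 and UQCR10 at 0.0015 ± 0.11. Without the 6 arrays UQCRB (-0.22), UQCRQ (-0.20) and UQCRH (-0.17) were still lower, UQCRC2 (-0.060, limma adjusted p = 0.291) and UQCRC1 (0.052) were not, and the median of the complex was -0.028.

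In complex IV, cytochrome c oxidase, 2 of 13 subunits were higher and 6 lower (31.4% and 28.9% of all genes), with a median of -0.087. COX7B, a small nuclear-encoded subunit, ran from -0.82 through -0.62 to -0.14. Its mean was -0.55 ± 0.22, 1.47-fold lower, with all animals below 0 (limma adjusted p = 5.67e-06), and it was -0.29 on the 14 arrays. NDUFA4, named for complex I but found in complex IV, ran from -0.93 through -0.54 to -0.058 (-0.50 ± 0.31, limma adjusted p = 0.000203). COX5B, a zinc-binding subunit, ran from -0.81 through -0.47 to -0.079 (-0.45 ± 0.26, limma adjusted p = 0.000125). In both, animals 9 and 10 had the lowest ratios and animals 2 and 3 the highest, and on the 14 arrays the means shrank to -0.14 and -0.15. COX4I1, a regulatory subunit, ran from 0.038 through 0.18 to 0.31 and was higher (0.17 ± 0.099, limma adjusted p = 0.000508). Of its 3 further probes, however, 1 was called higher and 2 lower, so that the mean over all its probes was -0.032 (limma adjusted p = 0.368).

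Several complex IV subunits exist as a widely expressed form and a form known from muscle, lung or brown fat. Of the second kind, COX7A1 (-0.015 ± 0.098), COX4I2 (0.0059 ± 0.075) and NDUFA4L2 (0.018 ± 0.13), a relative of NDUFA4, were not called (limma adjusted p = 0.708, 0.862 and 0.705). COX8B was above 0 in 8 of 10 animals, from -0.25 to 0.33 (0.14 ± 0.20, limma adjusted p = 0.0449), with its other passing probe at -0.014. The probes of these 4 genes had mean log2 intensities between 7.02 and 7.88. COX8A, the widely expressed partner of COX8B, was lower (-0.30 ± 0.21, limma adjusted p = 0.000552), and COX7A2 was not called (-0.087 ± 0.13, limma adjusted p = 0.0742). The brightest COX7A2 probe and its other 3 differed, since those gave -0.58 to -0.51 and were all called lower. Of 6 skeletal muscle markers measured 2 were higher and 1 lower, where 31.4% and 28.9% of all genes were. Of 3 brown fat genes ADIPOQ was lower (-0.13 ± 0.064, limma adjusted p = 0.000541, and -0.052 on the 14 arrays) while UCP1 and CIDEA did not pass the filter. Their part in these values was not tested.

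For COX6A1 the array carries probes from 3 assembled transcripts, and a pair of them read the same stretch from opposite strands, shown here because only 1 of the pair was called. Capitals mark the 56 bases of each 60-base probe that are the reverse complement of the other, both written from the 5′ end as deposited.
COX6A1 brighter probe: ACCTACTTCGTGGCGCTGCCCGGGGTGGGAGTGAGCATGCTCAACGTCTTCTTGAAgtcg
COX6A1 dimmer probe: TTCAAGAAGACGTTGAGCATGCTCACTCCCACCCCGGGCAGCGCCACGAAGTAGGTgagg
The brighter probe (mean log2 intensity 13.6) represented the gene and gave -0.053 ± 0.12, which was not called (limma adjusted p = 0.238). The dimmer one (mean log2 intensity 9.36) gave -0.29 ± 0.21 and was called lower (limma adjusted p = 0.000596, probe level), where 31% of all probes of named genes were called higher and 28.2% lower. All 4 further COX6A1 probes, on the other 2 transcripts, were called lower (-0.40 to -0.16). Which strand belongs to the messenger RNA is not stated in the labels or the files. The probes were not translated and compared with the COX6A1 protein, which could settle it, so the strands are left unranked.

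Complex V had 4 of 14 genes higher and 7 lower (31.4% and 28.9% of all genes), with a median of -0.077. In the F1 head, ATP5A1 (subunit alpha) ran from 0.044 through 0.22 to 0.37 and was higher (0.22 ± 0.086, limma adjusted p = 3.27e-05), with every animal above 0 in both orientations. ATP5B, the catalytic subunit beta, ran from -0.88 through -0.41 to 0.051 and was lower (-0.40 ± 0.32, limma adjusted p = 0.00123). The central stalk gene ATP5C1 was also lower (-0.19 ± 0.13, limma adjusted p = 0.000934). On the 14 arrays ATP5B (-0.065, limma adjusted p = 0.206) and ATP5C1 (-0.037, limma adjusted p = 0.508) were no longer called, and ATP5A1 was (0.15). Of 6 further ATP5B probes 5 were called lower and 1 higher. ATP5E and ATP5D, which encode the small subunits of the stalk, were at 0.040 ± 0.081 and -0.012 ± 0.066 and were not called.

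In the Fo part and the outer stalk, 3 of 9 genes were higher and 5 lower. ATP5J2 (subunit f) ran from -0.85 through -0.49 to -0.0030 and was lower (-0.48 ± 0.28, limma adjusted p = 0.000127), as was ATP5F1 (subunit b, -0.40 ± 0.22, limma adjusted p = 8.01e-05). ATP5O, which joins the outer stalk to F1, was higher (0.13 ± 0.12, limma adjusted p = 0.00689) on 20 arrays but not called on 14 (0.078, limma adjusted p = 0.0846). ATP5G1, ATP5G2 and ATP5G3 encode the same mature c subunit of the rotor ring with different import sequences. ATP5G1 was lower (-0.39 ± 0.16, animals -0.70 to -0.21, limma adjusted p = 9.82e-06), with its 3 further probes lower too. ATP5G2 was lower by less (-0.13 ± 0.071, limma adjusted p = 0.0007), and its 3 further probes gave -0.45 to -0.25. ATP5G3 was higher in the mean of both orientations (0.23 ± 0.15, animals 0.082 to 0.44, limma adjusted p = 0.000489), but 0.79 ± 0.18 with HFD in Cy5 and -0.34 ± 0.16 with HFD in Cy3. The sign of this brightest ATP5G3 probe thus turned with the dye in all 10 animals. Of 3 further ATP5G3 probes, 2 were called higher and did not turn sign. They were at 0.27 and 0.18 with HFD in Cy5, and at 0.19 and 0.21 with HFD in Cy3. The other was at -0.095 (0.031 with HFD in Cy5 and -0.22 with HFD in Cy3).

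ATP5A1 also had probes on opposite strands of the same stretch, here 38 bases, shown because the pair gave called ratios of opposite sign. Capitals again mark the bases that are reverse complements of each other.
ATP5A1 brighter probe: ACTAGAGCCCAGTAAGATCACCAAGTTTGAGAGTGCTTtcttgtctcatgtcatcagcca
ATP5A1 dimmer probe: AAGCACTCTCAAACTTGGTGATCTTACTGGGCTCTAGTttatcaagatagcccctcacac
The brighter probe (mean log2 intensity 15.4) gave 0.19 ± 0.082, above 0 in 10 of 10 animals (limma adjusted p = 0.00011, probe level). The dimmer probe (mean log2 intensity 9.59) gave -0.36 ± 0.19, above 0 in 0 of 10 animals (limma adjusted p = 7.50e-05). With HFD in Cy5 and in Cy3 the brighter one was at 0.18 and 0.19, and the dimmer one at -0.15 and -0.57. Of the 14 ATP5A1 probes that passed the filter, the 5 from 2 assembled transcripts were all called higher (0.19 to 0.31), while of 9 probes from another transcript 7 were called lower and the other 2 were not called (-0.42 to -0.036). Averaging all of them, whichever strand they read, gave -0.087 for the gene (limma adjusted p = 0.1004). The ATP5A1 probes were likewise not compared with the protein, so this mean may mix the messenger RNA with its opposite strand. Over the whole array, 1126 pairs of passing probes with the same gene name shared at least 25 bases on opposite strands. In 487 pairs both probes were called, and in 209 of these they were called in opposite directions.

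**Figure D2:**
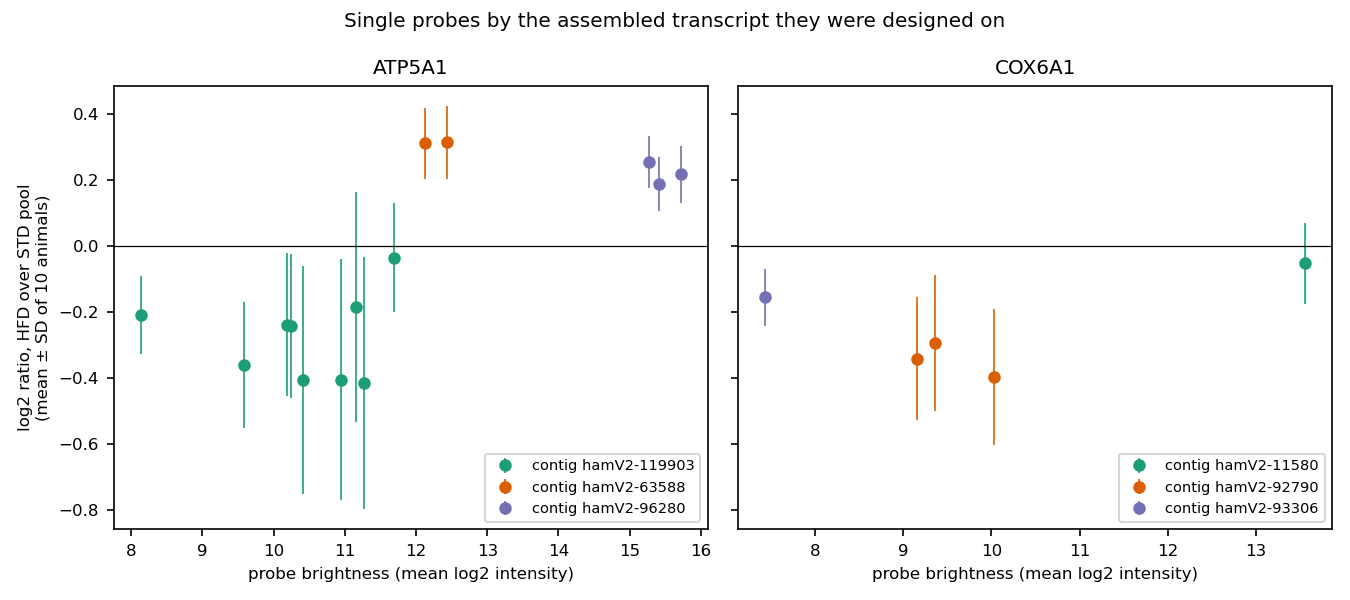
Mean log2 ratio ± SD of 10 animals for each ATP5A1 and COX6A1 probe that passed the filter, against the probe's mean log2 intensity, coloured by the assembled transcript it was designed on. The ATP5A1 probes split by transcript, 5 at 0.19 to 0.31 and 9 at -0.42 to -0.036.

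Among the assembly factors, 3 for complex I and 7 for complex IV, NDUFAF2 and COX16 lay lowest. NDUFAF2, a chaperone of late complex I assembly, had the smallest p of all 89 genes. Its ratios ran from -0.71 through -0.58 to -0.36, with a mean of -0.55 ± 0.11, 1.46-fold lower (limma adjusted p = 4.77e-08). All 20 arrays gave a ratio below 0, its 3 further probes lay between -0.65 and -0.55, and the 14 arrays gave -0.42 (limma adjusted p = 8.01e-08). COX16, which acts in the assembly of the copper site of complex IV, ran from -1.004 through -0.80 to -0.19. It was 1.63-fold lower (-0.71 ± 0.29, limma adjusted p = 7.25e-06), also with all 20 arrays below 0, and -0.40 on the 14, with its other probe at -0.36. NDUFAF1 (0.11 ± 0.12, limma adjusted p = 0.0194) and COX15, a heme A synthase (0.16 ± 0.12, limma adjusted p = 0.00169), were higher. NDUFAF3 (-0.070 ± 0.080, limma adjusted p = 0.0436; -0.031 and not called on the 14 arrays, adjusted p = 0.484) and COX10, the heme O synthase (-0.14 ± 0.093, limma adjusted p = 0.00182), were lower. For COX10, 4 of 5 further probes were called higher, and its mean over all probes was 0.096 (limma adjusted p = 0.000952), so its direction depended on the probes used.

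Set side by side within each animal by the genes' brightest probes, complex II lay above the others and complex III mostly below. The median over the genes of complex II was above that of complex I in 10 of 10 animals, with a mean difference (complex I minus complex II) of -0.28 ± 0.050. It was also above complexes III, IV and V in all 10. The median of complex III was below that of complex I in 10 of 10 animals and below those of complexes IV and V in 9 of 10. Complexes I and IV differed by -0.010 ± 0.053, less than the spread between animals. No p is given, since the genes of a complex are not replicates. The placing of complex III depended in part on the probes used. With the mean of all probes the medians of complexes III, IV and V were -0.27, -0.25 and -0.19, so that III lay only slightly below IV. The complex IV genes also include COX4I2, COX6B2, COX7A1 and COX8B, whose probes were dim. Their ratios (0.0059, 0.041, -0.015 and 0.14) all lay above the median of complex IV (-0.087). The place of complex III below complex IV thus rests in part on them, and a median of complex IV without them was not taken. On the 14 arrays the medians of complexes I to V were -0.0061, 0.20, -0.028, 0.0038 and -0.0014, so that complex II remained above the others and the other 4 lay close to 0. The calls there were 11 higher and 4 lower in complex I, 3 higher in complex II and 3 lower in complex III. In complex IV 1 was higher and 4 lower, and in complex V 3 were higher and 4 lower. Of all genes 24.9% were higher and 18.3% lower on those arrays.

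The ratios of the members depended on the dye orientation. With HFD in Cy5, 23 were higher and 29 lower, where 29.5% and 22.3% of all genes were called. With HFD in Cy3, 19 were higher and 45 lower, against 30.8% and 32.3%. The within-animal difference (ratio with HFD in Cy5 minus ratio with HFD in Cy3) had a median of 0.17 over the members and 0.018 over all genes. It was above 0 at an adjusted p under 0.05 for 44 members and below 0 for 13, where 25.8% and 23% of all genes were called (limma). By each gene's brightest probe, the 2 largest differences were in ATP5G3 (1.14, limma adjusted p = 3.96e-08) and UQCRB (1.05, limma adjusted p = 0.00384). Next came NDUFA1 of the complex I membrane arm (0.97, limma adjusted p = 0.00064), which was 0.12 with HFD in Cy5 and -0.85 with HFD in Cy3. Differences of the opposite sign were found for ATP5O (-0.42) and NDUFA7 (-0.37). NDUFA7 was below 0 in all animals with HFD in Cy5 (-0.39 ± 0.074) and not called with HFD in Cy3 (-0.026 ± 0.10). Its further probes, from bright to dim, were at -0.20, -0.28 and 0.018 with HFD in Cy5. With HFD in Cy3 they were at -0.26, -0.20 and -0.38. UQCR10 had the smallest difference of complex III (0.00080), COX5B and NDUFA4 the largest of complex IV (0.61 in each), and SDHC the largest of complex II (0.31, limma adjusted p = 0.0912).

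Taken by single orientation, 9 members were called higher in both, among them ATP5A1, COX4I1, NDUFA10, NDUFB7, SDHA and SDHB, where 16.4% of all genes were. Lower in both were 23 members, against 13.7% of all genes, among them UQCRB, UQCRC2, UQCRH and UQCRQ of complex III. COX5B, COX7B, COX8A and NDUFA4 of complex IV, ATP5B, ATP5F1, ATP5G1 and ATP5H of complex V, and NDUFAF2 and COX16 were also lower in both. A further 7 members were called in opposite directions by the 2 orientations, among them ATP5G3 and NDUFA1, where 6.91% of all genes were.

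**Figure D3:**
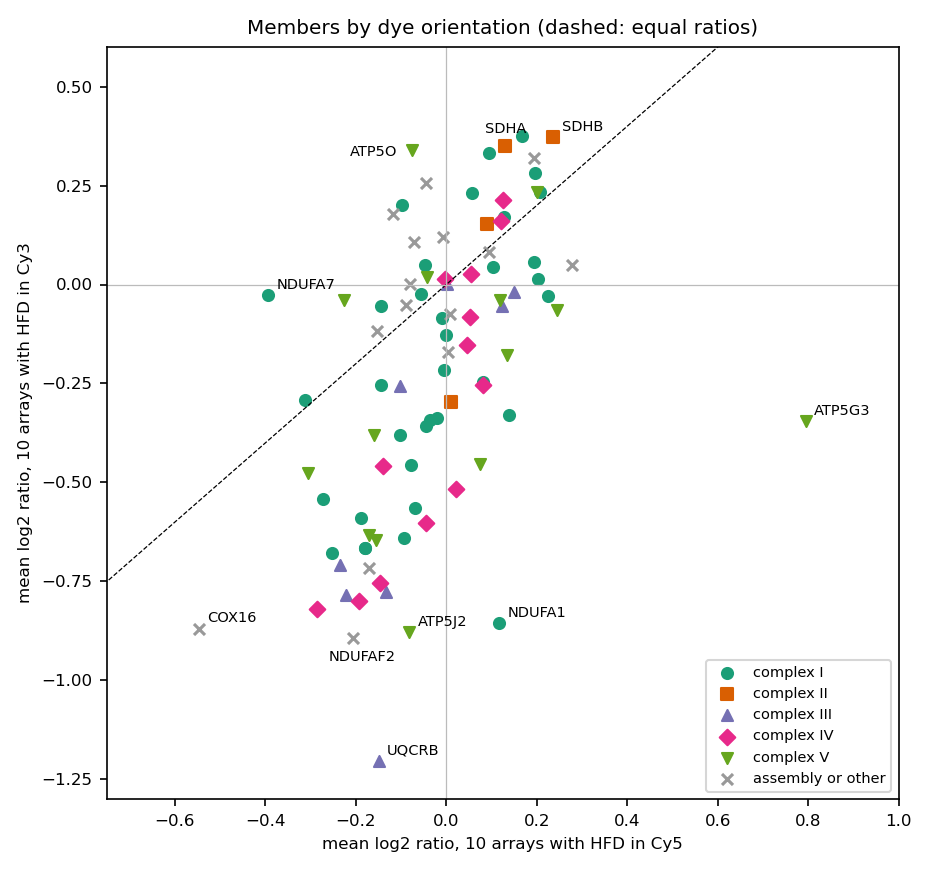
Mean log2 ratio of each member on the 10 arrays with HFD in Cy3 against that on the 10 arrays with HFD in Cy5, with the line of equality dashed. Most genes of complexes III, IV and V lie below the line, ATP5G3 lies farthest to the right and UQCRB lowest.

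The dye difference was not alike in all animals. The split of the animals was taken from the 6 arrays seen to stand apart in these same ratios, so the counts between the sets describe that shift and are no independent test of it. Comparing animals 5 to 10 with animals 1 to 4, 29 members were called, each of them lower in animals 5 to 10, where 7.35% of all genes were lower and 2.1% higher (limma). With HFD in Cy5 alone, 0 members and 0 genes were called by limma, although 776 of 13826 genes had an unadjusted p under 0.05. With HFD in Cy3 alone, 49 members were lower and 2 higher, against 21.2% and 11.9% of all genes. UQCRB lay at -2.52 to -1.25 on the 6 arrays that stood apart and at -0.44 to -0.17 on the Cy3 arrays of animals 1 to 4, whereas with HFD in Cy5 its range was -0.30 to 0.071 in animals 5 to 10 and -0.50 to -0.034 in animals 1 to 4. NDUFA4 lay at -1.75 to -0.92 on the 6 arrays and at -0.30 to 0.11 on the Cy3 arrays of animals 1 to 4. In both genes the groups did not overlap in Cy3 and overlapped in Cy5. UQCRB was named in part for its large dye difference, and the share of all genes without overlap was not counted. SDHB, with HFD in Cy3, lay at 0.34 to 0.54 in animals 5 to 10 and at 0.24 to 0.38 in animals 1 to 4, so that its groups overlapped. In animals 1 to 4 alone, 6 members had a higher ratio and 7 a lower one with HFD in Cy5, where 5.49% and 7.58% of all genes were called, and the median dye difference of the members was -0.034. In animals 5 to 10 alone the counts were 54 and 16, against 36.1% and 27.8%. The cause of the shift on the 6 arrays was not tested.

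**Figure D4:**
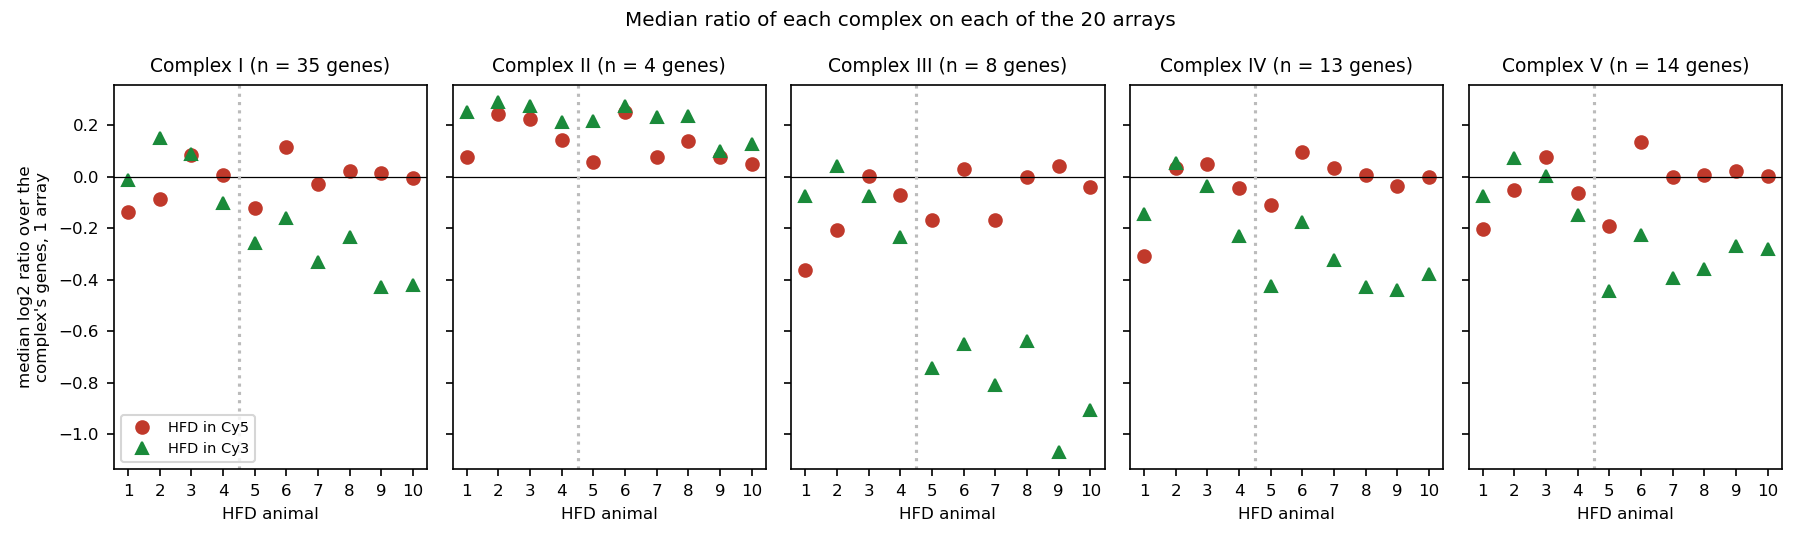
Median log2 ratio over the genes of each complex on each of the 20 arrays, by animal, with circles for HFD in Cy5 and triangles for HFD in Cy3; the dotted line separates animals 1 to 4 from 5 to 10. For complexes I, III, IV and V the triangles of animals 5 to 10 lie below their circles, and for complex II all 20 points lie above 0.

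Members with brighter and dimmer probes had different counts of calls. Brightness here is a property of the probe as much as of the transcript. Split at the members' median brightness (mean log2 intensity 11.02, a split chosen after the data were seen), the 44 members with brighter probes comprised 18 higher and 11 lower genes, and the 45 with dimmer probes 4 higher and 33 lower. Of all genes with probes as bright, 36.9% were higher and 33.8% lower, and of those with probes as dim, 30.4% and 28%. The median ratio was 0.038 for brighter and -0.24 for dimmer members, while the 2 medians over all genes were -0.0019 and 0.0092. On the 14 arrays, 18 brighter members were higher and 8 lower, and 4 dimmer members were higher and 10 lower. Across the 89 members, mean ratio and brightness had r = 0.40, against r = -0.014 across all 13826 genes, given as a description since the probes share arrays. ATP5G2, NDUFA7, NDUFA12 and NDUFAB1 were the lower members with the brightest probes (mean log2 intensity 12 to 14.4). The median share of G and C bases was 53.3% in the probes of higher members, 46.7% in those of lower members and 51.7% over all genes, and it had r = 0.033 with the ratio across the members.

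**Figure D5:**
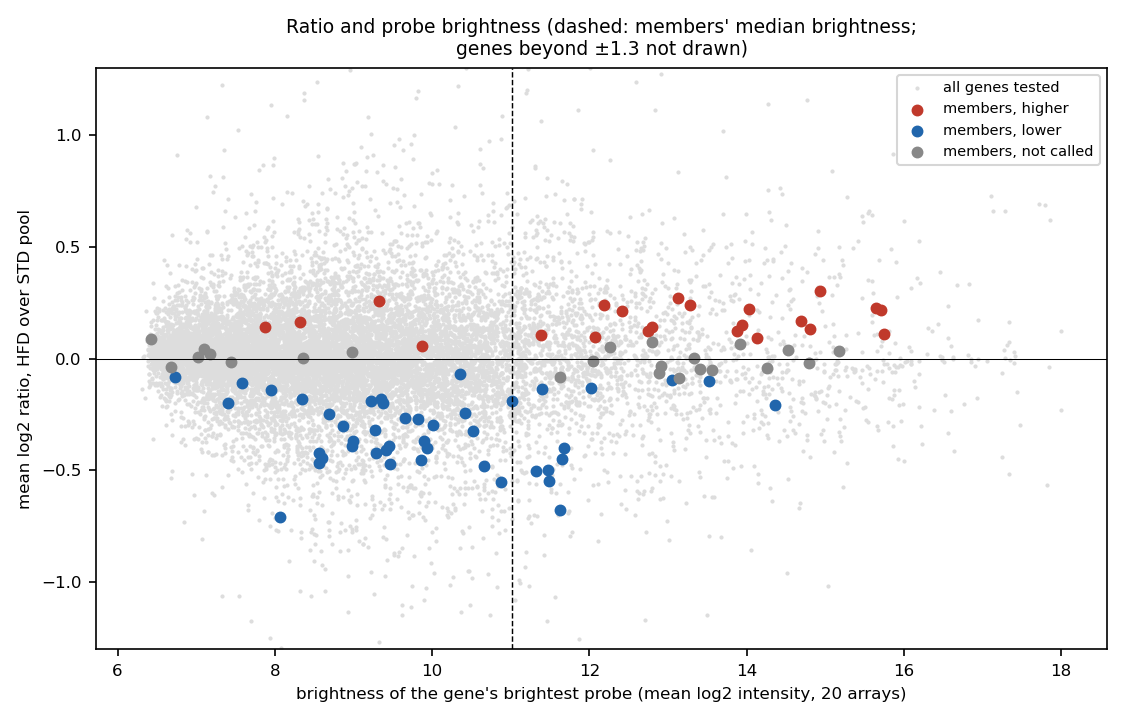
Mean log2 ratio against the mean log2 intensity of the representing probe for all genes tested (grey) and the 89 members, coloured by call; the dashed line is the members' median brightness of 11.02. Right of the line lie 18 of the 22 higher members, and on or left of it 33 of the 44 lower ones.

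Most members had more than 1 probe. Of the 44 lower members 36 had further probes that passed the filter, and in 32 of these all further probes were called lower too. Of the 22 higher members all 22 had further probes, and in 11 all were called higher. Further probes called in the opposite direction were found for 5 members. The same counts over all genes were not taken, so whether these differ from the background is not known. Of all single probes of named genes, 31% were called higher and 28.2% lower. Probes of a gene can lie on the same assembled transcript and are not independent of each other. Further probes were counted, and entered the mean of all probes, whichever strand they read.

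The subunits encoded by mitochondrial DNA do not match the name rule and were looked up afterwards by their descriptive names. Subunit 1 of NADH dehydrogenase was at 0.037 ± 0.14, both probes of its subunit 5 at 0.061 ± 0.078 and 0.12 ± 0.11, and its subunit 6 at -0.17 ± 0.22. Cytochrome b of complex III was at -0.14 ± 0.18, and the 2 probes of cytochrome c oxidase subunit I at -0.067 ± 0.056 and -0.13 ± 0.086. The lowest mean was that of cytochrome c oxidase subunit 3 (-0.55 ± 0.43, above 0 in 1 of 10 animals), but its probe was dim. Its mean log2 intensity was 6.6, against 17.2 and 16.7 for the probes of subunit I. The subunit 3 probe was well above background on 3 of 20 arrays in HFD RNA and on 20 in the pool. It thus passed the filter through the pool alone, and its place as the lowest carries little weight. Most of the mitochondrially encoded subunits turned sign with the dye. With HFD in Cy5 and in Cy3 the means were 0.29 and -0.21 for subunit 1 of NADH dehydrogenase, 0.27 and -0.60 for its subunit 6, 0.43 and -0.70 for cytochrome b, and 0.41 and -0.54 for the brighter probe of oxidase subunit I. Subunit 3 of the oxidase was below 0 in both (-0.52 and -0.59). They were outside the genes tested and have no adjusted p.

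Other genes of the pathway were counted from lists of names. The share of all genes to set beside these counts is 31.4% higher and 28.9% lower, and beside those on the 14 arrays 24.9% and 18.3%. Of 5 subunits and electron carriers that the name rule does not match, 1 was higher and 4 lower (1 and 2 on the 14 arrays). CYC1, cytochrome c1 of complex III, was higher (0.097 ± 0.12, limma adjusted p = 0.039), and CYCS, cytochrome c, was lower (-0.091 ± 0.084, limma adjusted p = 0.0143). Of 18 assembly factors outside the rule 8 were higher and 8 lower (8 and 3 on the 14 arrays), the inhibitor ATPIF1 among the latter (-0.15 ± 0.21, limma adjusted p = 0.0375; 0.080 on the 14 arrays). Of 16 genes for electron entry and carriers 6 were higher and 6 lower (6 and 2 on the 14 arrays), and of 14 genes of the tricarboxylic acid cycle 6 and 2 (6 and 1). Of 11 genes of coenzyme Q synthesis 5 were higher and 2 lower, and on the 14 arrays 4 were called, each of them higher. The uncoupling protein gene UCP2 was not called (-0.026 ± 0.13, limma adjusted p = 0.576).

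Among 16 regulators of mitochondrial genes, 4 were higher and 6 lower, against 31.4% and 28.9% of all genes. On the 14 arrays 3 were higher and 2 lower, against 24.9% and 18.3% of all genes. NRF1, a transcription factor for nuclear-encoded subunits, was higher (0.35 ± 0.17, limma adjusted p = 4.50e-05), in 9 of 10 animals. The coactivator gene PPARGC1A was higher in 7 of 10 animals (0.22 ± 0.24, limma adjusted p = 0.0114) and 0.076 on the 14 arrays, and the nuclear receptor gene ESRRA was higher in 10 of 10 (0.16 ± 0.097, limma adjusted p = 0.000672), with -0.067 as the mean of all its probes. GABPA, a subunit of another such transcription factor, was the fourth higher one (0.19 ± 0.20, limma adjusted p = 0.00818). The lowest of the 6 were SSBP1, which binds single-stranded mitochondrial DNA (-0.42 ± 0.26, limma adjusted p = 0.00022), and POLRMT, the mitochondrial RNA polymerase (-0.39 ± 0.093, below 0 in 10 of 10 animals, limma adjusted p = 3.08e-07). On the 14 arrays these were at -0.15 and -0.34. The other 4 were MTERF (-0.30 ± 0.18), the DNA polymerase subunit genes POLG2 (-0.26 ± 0.11) and POLG (-0.13 ± 0.096), and YY1 (-0.075 ± 0.074). TFAM, which packages and transcribes mitochondrial DNA, was not called (0.016 ± 0.17, limma adjusted p = 0.79).

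Markers of cell types were counted as well, where 31.4% of all genes were higher and 28.9% lower. Of 10 hepatocyte markers 1 was higher and 7 lower, with per-animal medians between -0.44 and -0.18. Of 6 macrophage markers 4 were higher and 2 lower (medians 0.37 to 1.12), and of 5 endothelial markers 3 and 1. Of 6 stellate cell and fibroblast markers 3 were higher, the 2 red cell markers were lower, and the 3 cholangiocyte markers were not called. Without the 6 arrays, 6 hepatocyte markers were still lower, where 18.3% of all genes were. The part of the cell makeup in the ratios of the respiratory chain genes was not tested.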

How the data were processed

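Liver RNA of 10 HFD animals was compared with 1 pool of 10 STD animals on 20 arrays, with 100 ng of RNA labelled per the labels' protocols. Per the file headers, the arrays were read with Agilent Feature Extraction 10.7.3.1, and the deposited files give spot intensity in green and red with spot flags. The authors' deposited log2 ratios, whose centring and exact scale are not stated, served as an alternative; limma is named in the submitters' processing notes.

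Intensities were background-corrected here (normexp, offset 50) and loess-normalised within arrays, spots of a probe were averaged, and each ratio was turned to HFD over STD. The 2 arrays of an animal were averaged, and 10 ratios were tested against 0 with limma 3.58.1 (R 4.3.3, with the data.table package at version 1.17.8), with Benjamini-Hochberg adjustment over 13826 genes and a threshold of 0.05. Control spots and outlier spots were left out. A probe had to be well above background in either RNA on at least 10 of 20 arrays, and the brightest probe stood for a gene. The 14-array values come from a limma fit of unaveraged arrays that had the dye as a covariate and animals as a random factor. Only the limma test against 0 and its adjustment were tried on simulated data, with independent ratios and no dye effect. The earlier steps and the 14-array fit were not.

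The members and all lists were chosen with earlier results of these data known. Named were, per role, up to 2 called members with the highest and 2 with the lowest means. Also named were those with the largest and smallest dye difference per complex, all of complex II, isoforms and some regulators. UQCRC1, UQCRC2, UQCRH, UQCRFS1, UQCR11, NDUFV1, COX6B2, GABPA, SSBP1, POLRMT, MTERF, POLG, POLG2, YY1, ADIPOQ, NDUFA12, NDUFAB1, ATP5D and ATP5E were named after their values were seen. The same holds for the members listed by orientation and the mitochondrially encoded subunits. For 1 member the values are not reported here and it is left out of the plot by role, though it stays in all counts. Promoter sequences were not used here, and 44 of 89 names match a symbol of the RefSeq gene table of the hamster.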

Additional observations from a re-analysis of the deposited data

Results flagged for a closer look

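The items checked for outliers were 56, made up of the named genes and the medians of the complexes and of all members. In 2 of them, both genes, the animals' ratios held a value far from the others. That is about as many as chance gives at a rate of 1 in 20. In COX7A1, the muscle form of a complex IV subunit, animal 2 was at -0.25 and the nearest animal at -0.059. In CYCS, cytochrome c, animal 6 was at -0.29 and the nearest animal at -0.14.

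Between animals 5 to 10 and animals 1 to 4, 29 members had a lower ratio in the former at limma's threshold, a split taken from the arrays seen to stand apart and so no independent test. With the dyes compared within animals, 44 members had a higher ratio with HFD RNA in Cy5 than in Cy3. Both differences lay mainly on the 6 arrays that stood apart, and their cause was not tested.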

How the results depend on the processing

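No paired analysis was possible because all animals belong to 1 group and the STD pool was not measured by animal. Over 27 alternatives, values of the named genes kept their call in 1204 instances, were no longer called in 118, became called in 13 and reversed in 15. Direction was not compared for genes called neither in the main fit nor in the alternative, and these count among the 1204. Changes of sign in such genes are therefore not among the 15. With HFD in Cy5 alone, for example, COX6A1 went from -0.053 to 0.046 and COX7A2 from -0.087 to 0.081. Reversals came with the mean of all probes (COX10 0.096, COX4I1 -0.032, ATP5A1 -0.087, ESRRA -0.067) and with HFD in Cy5 alone (NDUFAF1 -0.045, SDHC 0.010, ATP5C1 0.074, ATP5O -0.076, NDUFA1 0.12, UCP2 0.13). They also came with HFD in Cy3 alone (ATP5G3 -0.34), on the 14 arrays (SDHC 0.058, ATPIF1 0.080) and in animals 1 to 4 alone (SDHC 0.040, ATPIF1 0.052).

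The mean of all probes moved the medians of complexes IV and V to -0.25 and -0.19. With HFD in Cy5 alone 29 members were lower, and the medians of complexes I, III, IV and V were -0.036, -0.12, 0.021 and -0.059. With HFD in Cy3 alone those of complexes I, IV and V were -0.22, -0.25 and -0.26. On the 14 arrays 18 members and 2529 of all genes were lower, with medians of -0.028 (complex III), -0.0014 (complex V) and 0.0022 (all members). The arrays of scan session 3 alone gave 23 lower members, and 2734 higher and 2360 lower genes in all. Animals 1 to 4 alone gave 12 higher and 15 lower members, 2226 higher and 1614 lower genes, a complex III median of -0.054, 6 and 7 members with a higher and a lower ratio in Cy5, and a median dye difference of -0.034. Fewer animals enter the last of these, and the cause of the other shifts was not tested.

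Leaving out 1 animal at a time gave 18 to 21 higher and 40 to 46 lower members, and 4053 to 4495 higher and 3755 to 4050 lower genes. The medians then ranged from -0.12 to -0.082 (complex I), 0.17 to 0.19 (II), -0.36 to -0.28 (III), -0.11 to -0.072 (IV), -0.088 to -0.064 (V) and -0.099 to -0.064 (all members). Median signals were 102 to 268 in green over backgrounds of 25 to 59, and 164 to 714 in red over 47 to 87.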
